A study of Mus musculus and synthetic construct with 30 samples.

Results

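The comparison described here set mouse embryonic stem cells (mESC) against the forebrain that such cells can give rise to, represented by microdissected tissue holding the ganglionic eminence and the olfactory bulb (GE/OB) of E14.5 embryos. It took every poly(A)-selected RNA sequencing library of these sources, 6 of mESC and 4 of GE/OB, which were 10 of the 16 RNA sequencing libraries and 10 of the 30 samples of the series. Both sources held 2 genotypes. The knockout (KO) replaced the body of Peril, a long noncoding RNA gene, with a LacZ reporter, and the wild type (WT) carried the intact gene. Genotype was a term of the model, and the difference examined was that between the tissues, not that between the genotypes. The mESC were male and were grown in 2i medium on feeder fibroblasts, as 3 wells of 1 WT clone and 3 wells of 1 KO clone. The GE/OB samples were single embryos of litter 46 from heterozygous matings, namely WT males 1 and 3 and KO females 2 and 7, of the strain labelled 129S6/C57BL/6J. The wells and embryos are the replicates, so that p-values measure the spread between wells of 2 clones and between 4 littermates. Because genotype went with sex in GE/OB, comparisons are reported for autosomal genes only, 24588 of the 26759 in the deposited table.

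Embryonic stem cells keep the capacity to form every cell type of the embryo, and a network of transcription factors around Pou5f1, Nanog and Sox2 holds them in that state. The ganglionic eminences are the ventral source of forebrain inhibitory neurons. Their dividing progenitors line the ventricle, and their daughters migrate away as they mature, many toward the cortex or the olfactory bulb. The olfactory bulb and any adjoining dorsal tissue also hold excitatory neurons that use glutamate.

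Library totals were 17544707 to 40522622 expected counts in mESC and 17594150 to 32146978 in GE/OB. The targeted locus followed the labels: LacZ was counted 4357, 2492 and 3761 times in the KO mESC and 2087 and 1346 times in the KO embryos, against at most 4 times in any WT library. Peril itself had no counts in GE/OB and 3 to 17.52 per library in mESC, including the KO clone. Levels of both sources correlated with each other at r from 0.645 to 0.672 over 14956 genes, against 0.990 to 0.995 between WT and KO libraries of one source, a description across genes, which are not replicates. Source, culture against dissection, and preparation of the libraries could not be told apart in this design. In bulk tissue, fewer cells of a type and less RNA per cell cannot be told apart either, and that applies to every level given here.

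Of 15777 autosomal genes with enough counts to test, 14487 (91.8%) differed between mESC and GE/OB at an adjusted p under 0.05 in the quasi-likelihood test of edgeR, 7437 (47.1%) higher in GE/OB and 7050 (44.7%) higher in mESC. At a difference of at least 2-fold as well, 9775 genes (62.0%) were called, 5360 (34.0%) in the direction of GE/OB and 4415 (28.0%) in that of mESC. The values of the 4 GE/OB libraries lay wholly outside the range of the 6 mESC libraries for 13430 genes (85.1%). Passing the test was therefore the rule, and gene groups are described below by the calls of at least 2-fold, to be read against those 34.0% and 28.0%, and by the median log2 difference, which was 0.05 over all tested genes. A gene without counts in 1 source could pass the count filter only through the other, which fixed its direction beforehand. The list counts below include such members. They were 7 of 26 in the pluripotency list, 4 of 17 in the GABA list and 4 of 20 in the dorsal list. In the synapse list they were 3 of 32, and in the microglia list 5 of 13. Differences are GE/OB minus mESC on the log2 scale of normalized counts. The standard error (SE) given with them was derived as the absolute difference over the square root of the test's F statistic. It can be too small for genes near 0 in a source. Tdh, such a gene, ranged from -14.72 to -13.23 when 1 library was left out, wider than its SE. Levels are TPM, an abundance of transcripts corrected for their length and scaled to the same total in every library. CPM is the same without the correction for length. The scales were offset: over 7855 genes at 5 TPM or more in all 10 libraries, the log2 difference in TPM was 0.64 above that in normalized counts. On the TPM scale 9599 genes were called higher in GE/OB and 4958 higher in mESC, a share of 65.9% of calls for GE/OB in place of 51.3%. This offset is a median, and a small negative difference in normalized counts could be positive on the TPM scale.

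The mRNA pool of GE/OB was spread over more genes. Autosomal genes at 1 TPM or more numbered 11499 to 11691 in the mESC libraries, with a median of 11542, and 13199, 13320, 13410 and 13193 in WT embryos 1 and 3 and KO embryos 2 and 7. No GE/OB library overlapped the mESC libraries, and the exact 2-sided permutation test gave p = 0.00476, the smallest that 6 against 4 libraries allow. A cut in TPM carries the offset between the scales described above. After counts were thinned to the smallest library, genes with at least 10 counts numbered 12565 to 12774 in mESC and 13754 to 13886 in GE/OB. The difference of means was then 1142 genes, in place of 1713 at 1 TPM. The 100 most abundant genes took 36.2% to 37.5% of the TPM in mESC and 26.8% to 28.4% in GE/OB. Genes at 1 TPM or more in every library of both sources numbered 10084. Another 628 reached 1 TPM in all GE/OB libraries and stayed under 0.1 TPM in all mESC libraries, and 212 had the opposite pattern. Both numbers rest on TPM cuts and so carry the same offset.

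Among genes averaging at least 10 TPM in one source, those with the largest fitted difference toward mESC included Pou5f1, Tdgf1, Fgf4, L1td1, Zscan10, AU018091 and Zfp42. The 8 furthest toward GE/OB were Neurod6, Fabp7, Neurod2, Dcc, Nrxn3, Gria1, Gria2 and Gpm6a. In what follows, mESC values are given as the lowest, the median and the highest of 6 libraries, and GE/OB values in the order WT embryo 1, WT embryo 3, KO embryo 2 and KO embryo 7. Pou5f1, the POU factor at the centre of the pluripotency network, lay at 1375, 1401 and 1426 TPM in mESC and was listed at 0 in all 4 GE/OB libraries. With 196552 counts against none it was at least 32519-fold higher in mESC, where the bound sets the 4 empty libraries together at 3 counts. Tdgf1, the coreceptor of the ligand Nodal, lay at 585, 678 and 742 TPM and was likewise listed at 0 in GE/OB, at least 23426-fold lower there. Fgf4, the fibroblast growth factor that embryonic stem cells secrete, was at least 9883-fold higher in mESC, at 158, 179 and 181 TPM against 0. For Zfp42, the zinc finger factor also named Rex1, the bound was 3512-fold. L1td1, an RNA-binding protein gene derived from a transposon, had 94433 counts in mESC and 1 in GE/OB, a ratio of 46871 in CPM (95% interval 8412 to 1851300.0).

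On the side of GE/OB, Neurod6, a basic helix-loop-helix factor of excitatory forebrain neurons, was listed at 0 in all 6 mESC libraries and lay at 339.6, 316, 242 and 295 TPM in GE/OB, at least 17567-fold higher. Neurod2, its relative, was at least 10538-fold higher, at 119.8, 121, 107 and 120.0 TPM against 0. Both genes therefore had no count in any well. Fabp7, the fatty acid binding protein of radial glia, was the most abundant of the 8, at 1402, 1444, 1336 and 1316 TPM, with 38197 counts against 1 in mESC and a ratio of 76958 in CPM (95% interval 13812 to 3039750.0). Gria1 and Gria2 encode subunits of the AMPA glutamate receptor. Gria1 was listed at 0 in mESC and lay at 34.0, 45.6, 51.4 and 31.0 TPM in GE/OB, and Gria2 lay at 99.7, 107, 116 and 83.8 TPM against 2 counts in all of mESC, a ratio of 31866 in CPM (95% interval 8821 to 263135). Gpm6a, a neuronal membrane glycoprotein gene, lay at 527, 532, 539.5 and 439 TPM and at no more than 0.05 TPM in any mESC library. The plot of TPM by library shows these and other marker genes side by side.

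The promoters of genes at these extremes are shown because their base composition is one property of the gene groups described further on. Each window holds 300 bases around the RefSeq start (250 before, 50 after) in GRCm38.p6, read 5′ to 3′ on the strand of the gene, with the dinucleotide CG in capitals. CG reads the same on both strands. In windows of the same size set at the GENCODE gene start instead, 98.9% of those of all tested genes held at least 1 CG. The Neurod6 window lies at chr6:55681214-55681513 (minus strand) and holds 3 CG, that of Fabp7 at chr10:57784673-57784972 (plus strand) holds 6, and that of Pou5f1 at chr17:35505782-35506081 (plus strand) holds 11. For contrast, Actl6b, a remodeller subunit gene of neurons, has 23 CG in chr5:137553296-137553595 (plus strand), and Tbp, the gene of the TATA-binding protein that differed little between the sources, has 17 in chr17:15499638-15499937 (plus strand), the median of all tested genes.
Neurod6: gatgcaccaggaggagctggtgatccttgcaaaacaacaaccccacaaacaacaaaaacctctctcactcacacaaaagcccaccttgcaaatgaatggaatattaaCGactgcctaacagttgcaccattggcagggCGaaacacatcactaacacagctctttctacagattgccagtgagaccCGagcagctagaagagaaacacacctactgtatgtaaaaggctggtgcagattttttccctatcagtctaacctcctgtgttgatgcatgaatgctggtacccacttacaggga
Fabp7: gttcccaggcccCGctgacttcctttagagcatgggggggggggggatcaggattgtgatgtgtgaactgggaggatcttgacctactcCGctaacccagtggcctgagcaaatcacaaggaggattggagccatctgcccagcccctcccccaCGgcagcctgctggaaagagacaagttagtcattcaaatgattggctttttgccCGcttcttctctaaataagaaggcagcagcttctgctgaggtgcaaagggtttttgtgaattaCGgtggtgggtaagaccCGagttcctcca
Pou5f1: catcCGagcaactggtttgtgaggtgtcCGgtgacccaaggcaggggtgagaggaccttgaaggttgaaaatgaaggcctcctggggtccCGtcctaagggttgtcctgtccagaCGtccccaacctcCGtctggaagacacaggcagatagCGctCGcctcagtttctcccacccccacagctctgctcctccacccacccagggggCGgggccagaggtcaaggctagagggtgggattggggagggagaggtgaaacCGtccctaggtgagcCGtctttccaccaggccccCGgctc
Actl6b: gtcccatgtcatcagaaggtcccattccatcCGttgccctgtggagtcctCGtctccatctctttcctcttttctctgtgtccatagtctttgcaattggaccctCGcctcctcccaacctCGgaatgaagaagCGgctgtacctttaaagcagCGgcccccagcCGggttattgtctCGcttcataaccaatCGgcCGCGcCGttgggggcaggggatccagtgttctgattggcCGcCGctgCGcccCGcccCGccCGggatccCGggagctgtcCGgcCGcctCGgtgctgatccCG
Tbp: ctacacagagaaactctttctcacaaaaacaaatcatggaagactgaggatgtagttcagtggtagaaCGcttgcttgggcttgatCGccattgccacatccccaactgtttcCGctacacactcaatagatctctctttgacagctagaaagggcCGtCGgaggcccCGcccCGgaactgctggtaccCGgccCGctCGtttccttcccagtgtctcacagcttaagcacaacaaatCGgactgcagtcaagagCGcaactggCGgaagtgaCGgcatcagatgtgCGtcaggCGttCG

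The mESC libraries carried the markers of their label. Of the 26 measured genes of the pluripotency network, 25 were at least 2-fold higher in mESC and none in GE/OB, with a median log2 difference of -10.57, or -10.25 with the 7 members without GE/OB counts set at their bounds. Nanog, the homeobox factor of the network, lay at 502, 521 and 540.1 TPM in mESC and at 0.16, 0.13, 0.07 and 0.2 TPM in GE/OB, a log2 difference of -12.69 ± 0.10. Esrrb, an orphan nuclear receptor of naive cells, lay at 340.4, 362 and 374 TPM against 0.51, 0.22, 0.17 and 0.08 TPM. Klf4, a Krüppel-like factor of the same state, lay at 149, 166 and 194 TPM against 2.38, 3.63, 2.06 and 3.83 TPM. Tfcp2l1 and Sall4, further factors of the network, differed by -10.42 ± 0.08 and -7.18 ± 0.11, and Dppa5a, the most abundant of these genes, stood at 5162, 5276 and 5612 TPM against 2.29, 3.28, 2.65 and 1.4 TPM. For each of the 6 the GE/OB libraries lay far below the lowest mESC library. Sox2, which is also a factor of neural progenitors, was the most abundant member in GE/OB: it stood at 250.1, 259 and 268 TPM in mESC and at 148, 138, 125 and 163 TPM in GE/OB, a log2 difference of -1.50 ± 0.06 without overlap. The zinc finger factor Sall1 and Rif1, a regulator of replication timing, were the other members above 10 TPM in every GE/OB library, with log2 differences of -1.26 ± 0.05 and -2.58 ± 0.05. Lin28a, the RNA-binding protein that blocks maturation of let-7 microRNAs, fell from 147, 166 and 185 TPM in mESC to 0.21, 0.4, 0.17 and 0.47 TPM in GE/OB.

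Genes of the primed state and of the germ layers went both ways: 6 of 11 measured were at least 2-fold higher in mESC and 2 in GE/OB, with a median log2 difference of -1.68. Nodal, a ligand of the TGF-beta family, lay at 62.6, 64.7 and 77.6 TPM in mESC and at 0.05, 0.11, 0.06 and 0 TPM in GE/OB. Otx2, a homeobox factor of the primed state and of the early forebrain, lay at 28.5, 45.4 and 59.4 TPM against 18.2, 19.1, 17.2 and 20.5 TPM, without overlap. Gata4, an endoderm factor, lay at 3.44, 4.56 and 5.21 TPM and was listed at 0 in GE/OB, at least 202-fold lower. Pou3f1, a POU factor of the primed state that neural cells also use, had the opposite direction, with 1.27, 1.36 and 1.49 TPM in mESC and 23.2, 21.0, 20.9 and 22.6 TPM in GE/OB.

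Signals that hold the stem cell state were measured with their receptors and targets. In the list of leukaemia inhibitory factor (LIF), bone morphogenetic protein and Id genes, 6 of 14 were at least 2-fold higher in each direction. Among genes of LIF signalling, the receptor gene Lifr stood at 17.5, 19.7 and 21.6 TPM against 3.52, 3.24, 3.62 and 3.3 TPM, and Socs3, a feedback inhibitor that STAT3 induces, at 62.0, 69.0 and 77.2 TPM against 8.79, 9.16, 8.52 and 8.79 TPM. Stat3 itself differed by -2.50 ± 0.03. The Id genes, inhibitors of basic helix-loop-helix factors, split. Id2 lay at 10.9, 11.7 and 13.7 TPM in mESC and 164, 159.8, 155 and 131 TPM in GE/OB, whereas Id3 lay at 17.6, 22.6 and 26.2 TPM and 12.1, 13.1, 13.4 and 16.4 TPM, and neither gene overlapped between the sources.

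DNA methylation genes changed partners. The list had 5 of 13 members at least 2-fold higher in mESC and 2 in GE/OB. The de novo methyltransferase Dnmt3b lay at 61.4, 75.1 and 87.2 TPM in mESC and 5.06, 3.8, 4.71 and 4.5 TPM in GE/OB, while its relative Dnmt3a lay at 6.82, 10.6 and 14.48 TPM and 82.0, 87.2, 94.5 and 103 TPM. Dnmt3l, their cofactor without catalytic activity, had 25536 counts in mESC and 1 in GE/OB, a ratio of 12674 in CPM (95% interval 2275 to 500634). The oxidizing enzymes also split, with Tet1 at 91.5, 92.8 and 93.6 TPM against 19.9, 17.2, 20.9 and 19.4 TPM, a smaller log2 difference of -1.10 ± 0.03 for Tet2, and Tet3 at 0.74, 0.945 and 1.11 TPM against 55.7, 51.5, 54.5 and 57.7 TPM. Uhrf1, which recruits the maintenance enzyme, differed by -2.47 ± 0.08 on the log2 scale. None of these genes overlapped between the sources.

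Germline genes, many of which depend on promoter methylation for silencing in somatic cells, were counted in mESC. The list summed to 107.64 to 121.78 TPM there and to 3.67 to 12.58 TPM in GE/OB. Of 15 measured, 14 were at least 2-fold higher in mESC and 1, Tdrd1, in GE/OB, with a median of -5.17, or -4.96 at the bounds. The count toward GE/OB was 0 without WT embryo 3. Tdrd12, a piRNA pathway gene, reached 61.4, 64.6 and 68.8 TPM in mESC against 0.34, 0.94, 0.32 and 0.21 TPM in GE/OB. Hormad1, a protein of the meiotic chromosome axis, reached 13.3, 16.5 and 18.1 TPM and was listed at 0 in GE/OB, at least 396-fold lower.

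Adhesion genes separated an epithelial from a neural set. Among 19 junction and cadherin genes, 13 were at least 2-fold higher in mESC and 6 in GE/OB. Cdh1, the cadherin of epithelia and of stem cell colonies, lay at 206, 243 and 249 TPM in mESC and 0.16, 0.08, 0.17 and 0.12 TPM in GE/OB. Cdh2, the cadherin of neural tissue, lay at 6.03, 6.81 and 7.59 TPM and 226, 215, 229 and 233 TPM. The log2 differences were -11.49 ± 0.11 for Cdh1 and 4.38 ± 0.05 for Cdh2. Cldn4, a tight junction claudin, lay at 102, 105 and 119 TPM in mESC and was listed at 0 in GE/OB, at least 3456-fold lower. Epcam and the keratin gene Krt8 followed Cdh1, with log2 differences of -5.28 ± 0.11 and -7.28 ± 0.23. The 6 members higher in GE/OB were all classical or atypical cadherins, Cdh2, Cdh4, Cdh6, Cdh8, Cdh11 and Cdh13, of which Cdh8 differed most, from 0.01, 0.05 and 0.09 TPM to 30.5, 26.8, 28.4 and 25.4 TPM.

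Metabolic genes lay toward mESC. Of 14 enzymes of one-carbon, glycine and threonine metabolism, which feed nucleotide synthesis and methylation, 12 were at least 2-fold higher in mESC and none in GE/OB, with a median of -2.59. Tdh, the threonine dehydrogenase on which mouse embryonic stem cells rely, lay at 637, 665 and 693 TPM in mESC and 0.06, 0.26, 0.04 and 0 TPM in GE/OB, a log2 difference of -13.58 ± 0.15. Its partner enzyme Gcat lay at 83.5, 91.7 and 101 TPM against 8.94, 8.13, 7.64 and 10.6 TPM. The glycine cleavage enzyme Gldc was nearer, at 71.4, 102 and 132 TPM against 26.5, 22.8, 24.0 and 28.9 TPM, and the mitochondrial serine hydroxymethyltransferase Shmt2 lay at 169.9, 176 and 182 TPM against 46.2, 42.0, 41.8 and 52.6 TPM. The mitochondrial folate enzyme gene Mthfd1l differed by -4.34 ± 0.05. Every library of GE/OB was below every library of mESC for these 5 genes.

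Of 21 genes of glycolysis and of glucose or lactate transport, 15 were at least 2-fold higher in mESC and 1 in GE/OB, with a median of -2.10. Their summed level was 17327 to 18094 TPM in mESC and 5609 to 6585 TPM in GE/OB. Hk2, the inducible hexokinase, lay at 113, 126 and 139.6 TPM in mESC and 8.69, 6.37, 6.57 and 9.65 TPM in GE/OB, and Aldoa, the main aldolase, lay at 1538, 1574 and 1626 TPM against 221, 228, 232 and 251 TPM. The glucose transporter gene Slc2a3 had the largest difference of the list, -5.59 ± 0.09, from 459, 487 and 578 TPM to 18.2, 17.4, 19.1 and 14.8 TPM. Eno2, the enolase of neurons, was the exception: it rose from 2.21, 2.67 and 3.66 TPM to 23.8, 35.4, 38.7 and 29.3 TPM, while Eno1, its ubiquitous relative, lay at 1928, 2057 and 2091 TPM against 418, 411, 416 and 514 TPM. Gapdh, often used as a reference, had a log2 difference of -2.16 ± 0.05, although pseudogenes of it share sequence and can take or give reads. Of the 13 reference genes listed, 7 were at least 2-fold higher in mESC and none in GE/OB. The list's median was -1.10 in normalized counts and -0.36 on the TPM scale. On the TPM scale 8 members were called higher in mESC and 3 in GE/OB. In normalized counts, Tbp and Ywhaz were the 2 members called higher in GE/OB, both by little. Tbp lay at 47.0, 52.5 and 58.5 TPM against 83.2, 82.6, 85.5 and 87.3 TPM, a log2 difference of 0.12 ± 0.04 in normalized counts and of 0.69 on the TPM scale.

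The cell cycle list had no common direction. Of 43 measured regulators, 17 were at least 2-fold higher in mESC and 11 in GE/OB, and the median was -0.53 in normalized counts and 0.17 on the TPM scale. Among the D-type cyclins, which drive exit from G1, Ccnd3 and Ccnd2 went opposite ways and Ccnd1 did not pass the test, with a log2 difference of 0.15 ± 0.08, though it passed on the TPM scale at 0.81. Ccnd3 lay at 137, 171 and 199.9 TPM in mESC and 31.2, 28.6, 30.5 and 33.2 TPM in GE/OB, and Ccnd2 at 0.91, 1.1 and 1.53 TPM and 277, 256, 251 and 304 TPM. Inhibitors of cyclin-dependent kinases also went both ways. Cdkn1a lay at 113, 129 and 148 TPM in mESC and 10.2, 13.4, 14.49 and 13.2 TPM in GE/OB, whereas Cdkn1c, which marks cells leaving the cycle, lay at 3.7, 4.005 and 4.33 TPM and 72.8, 82.2, 72.9 and 89.0 TPM. Cdkn2a had 3422 counts in mESC and 2 in GE/OB, a ratio of 849 in CPM (95% interval 235 to 7015). The cyclin E gene Ccne1 and the replicative helicase subunit gene Mcm5 differed by -2.99 ± 0.07 and -2.36 ± 0.08. Rb1, the retinoblastoma protein that restrains entry into S phase, was higher there by 2.81 ± 0.05, at 57.9, 62.5, 58.3 and 55.4 TPM against 4.72, 5.16 and 6.18 TPM in mESC.

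The GE/OB libraries carried forebrain patterning genes. Of 21 measured factors of ventral progenitors, 18 were at least 2-fold higher in GE/OB and 1 in mESC, with a median of 6.36. Dlx1 and Dlx2, the homeobox factors that specify ventral progenitors and their inhibitory neurons, differed by 12.07 ± 0.14 and 10.16 ± 0.11. Dlx1 was the more abundant, at 522, 497, 506 and 477 TPM in GE/OB and at most 0.25 TPM in mESC. Nkx2-1, the factor of the medial eminence, lay at 74.9, 48.5, 47.8 and 75.3 TPM, with 6183 counts against 3 in mESC, a ratio of 4152 in CPM (95% interval 1420.2 to 20141). WT embryo 1 and KO embryo 7 held the higher Nkx2-1 values, so that the spread did not follow genotype. Gsx2, a factor of the lateral eminence, lay at 19.4, 19.98, 17.0 and 21.6 TPM against 0.08, 0.225 and 0.42 TPM. The exception was Nkx6-2, at 7.89, 13.3 and 21.8 TPM in mESC and 2.22, 1.27, 1.17 and 1.87 TPM in GE/OB.

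Olig1 and Olig2, factors of ventral progenitors and later of oligodendrocytes, did not pass the test between the sources in the model with a common tissue term, with log2 differences of -0.61 ± 0.98 and 0.83 ± 1.01. Their spread came from the stem cell clones. Olig2 averaged 49.6 ± 0.945 TPM (SD, n = 3) in wells of the WT clone, 0.0267 ± 0.0462 TPM (SD, n = 3) in wells of the KO clone, 23.7 ± 4.58 TPM (SD, n = 2) in WT embryos and 26.1 ± 5.25 TPM (SD, n = 2) in KO embryos. The GE/OB embryos thus lay between the clones, and clone and genotype cannot be told apart because each genotype was 1 clone. For Olig1 the WT clone averaged 36.1 ± 1.97 TPM, the KO clone 0.117 ± 0.0611 TPM, and the embryos 6.72 ± 1.44 and 8.05 ± 1.41 TPM in WT and KO. Across all autosomal genes, 12949 were called in WT libraries alone and in KO libraries alone, and 31 of them had opposite directions, Olig1 and Olig2 among them. The 31 also held small differences on either side of 0, and their direction is that of normalized counts. Klf6, named after its values were seen, differed by -0.18 in WT and 0.21 in KO libraries. Its TPM was nonetheless higher in every GE/OB library, at 21.21 to 24.26 against 12.44 to 15.79 in mESC.

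Factors of postmitotic ventral neurons were almost all higher in GE/OB: 23 of 25 by at least 2-fold, none in mESC, with a median of 5.44. Lhx6, which cortical interneurons of the medial eminence need, lay at 0.99, 1.24 and 1.38 TPM in mESC and 95.8, 74.5, 86.0 and 78.7 TPM in GE/OB. Isl1, a factor of striatal projection and cholinergic neurons, lay at 0.67, 1.07 and 1.28 TPM against 62.0, 82.9, 80.6 and 62.8 TPM. Bcl11b, a zinc finger factor of striatal and deep-layer cortical neurons, lay at 0.14, 0.185 and 0.37 TPM against 115, 119, 114 and 118 TPM, and Foxp2 at 0 to 0.08 TPM against 22.9, 25.9, 28.4 and 23.9 TPM. Meis2, a homeobox factor of the lateral eminence, was higher in GE/OB in both genotypes, at 307, 327, 308 and 298 TPM against 1.23, 2.73 and 4.99 TPM.

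All 17 measured genes of GABA signalling and neuropeptides were at least 2-fold higher in GE/OB, with a median of 6.41. Of these, 4 had no counts in mESC, so that their direction is not independent of the count filter. Gad1 and Gad2, the enzymes that make the inhibitory transmitter GABA, differed by 5.44 ± 0.12 and 7.96 ± 0.09. Gad2 lay at 0.14, 0.195 and 0.33 TPM in mESC and 78.4, 88.2, 85.2 and 85.8 TPM in GE/OB. Slc32a1, the vesicular transporter that loads GABA, lay at 0.11, 0.195 and 0.23 TPM against 41.5, 44.3, 46.2 and 42.4 TPM. Sst, the neuropeptide of one interneuron class, was listed at 0 in all mESC libraries and lay at 196, 277, 308 and 212 TPM in GE/OB, at least 3158-fold higher. Npy, another interneuron peptide, lay at 57.9, 58.0, 61.6 and 49.0 TPM against 1.38, 2.16 and 2.74 TPM.

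Ventral is only part of what the dissections held. Of 20 factors of dorsal forebrain and excitatory neurons, 18 were at least 2-fold higher in GE/OB and none in mESC, with a median of 8.20, and their summed level of 1029 to 1232 TPM stood beside 1851 to 1998 TPM for the ventral progenitor list. Tbr1, a T-box factor of early excitatory neurons, lay at 154, 156, 165 and 170.0 TPM in GE/OB and at most 0.03 TPM in mESC. Emx1, a factor of cortical progenitors, lay at 30.4, 27.0, 22.9 and 44.1 TPM against 0.08, 0.13 and 0.25 TPM, and Eomes, a T-box factor of intermediate progenitors, at 66.6, 59.4, 50.7 and 88.8 TPM against 4.14, 4.79 and 5.06 TPM. Neurog2, the proneural factor of excitatory progenitors, lay at 63.4, 60.5, 39.1 and 89.5 TPM against at most 0.03 TPM, and Pax6, a factor of dorsal radial glia, at 78.0, 80.9, 78.3 and 106 TPM against 0.99, 1.24 and 1.42 TPM. KO embryo 7 had the highest value of Emx1, Eomes, Neurog2 and Pax6. Slc17a6, a vesicular glutamate transporter, was listed at 0 in mESC and lay at 29.7, 30.4, 35.8 and 34.2 TPM, at least 4207-fold higher. Reln, secreted by Cajal-Retzius cells and by olfactory bulb neurons, lay at 72.6, 82.2, 101 and 78.3 TPM against 0.07, 0.145 and 0.31 TPM. The share of excitatory cells that belonged to the olfactory bulb was not tested. Markers of the hindbrain, spinal cord and diencephalon were low in both sources: 7 of 20 had enough counts to test, and the list summed to 3.15 to 6.28 TPM in GE/OB and 15.19 to 26.25 TPM in mESC. Of the 7, 5 were at least 2-fold higher in mESC and 1 in GE/OB, with a median of -3.40. A member could pass the count filter through either source alone, so that this direction is not independent of the filter.

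Progenitor genes of the ventricular zone were measured with the Notch pathway that maintains them. Of 20 radial glia and Notch genes, 14 were at least 2-fold higher in GE/OB and 1 in mESC, with a median of 3.25. Nes, the intermediate filament of neural progenitors, lay at 6.98, 8.29 and 8.45 TPM in mESC and 163, 137, 134 and 196 TPM in GE/OB, and the glutamate transporter gene Slc1a3 at 1.82, 2.54 and 3.25 TPM against 66.8, 70.7, 77.3 and 73.0 TPM. Sox9, a progenitor factor, differed by 8.21 ± 0.13. Vim, an intermediate filament that both sources used, lay at 251, 267 and 282 TPM against 666, 608, 573 and 839 TPM. The ligand gene Dll1 differed by 5.73 ± 0.14, from 0.52, 0.815 and 0.95 TPM to 68.5, 50.7, 56.5 and 69.5 TPM. The Notch target genes went apart: Hes5 lay at 66.2, 55.2, 53.2 and 82.7 TPM in GE/OB with 3 counts in mESC, a ratio of 2005 in CPM (95% interval 685 to 9726), and Hes1 lay at 17.2, 15.5, 14.8 and 20.4 TPM in GE/OB and 40.9, 44.2 and 50.04 TPM in mESC, a log2 difference of -2.02 ± 0.08. Hes1 was the 1 member at least 2-fold higher in mESC.

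Sonic hedgehog is the ventral patterning signal, and 6 of 12 members of its pathway were at least 2-fold higher in GE/OB and 2 in mESC. The ligand gene Shh lay at 5.83, 4.12, 5.42 and 6.3 TPM in GE/OB, with 625 counts against 4 in mESC. The signal transducer Smo lay at 38.5, 34.4, 35.8 and 49.98 TPM against 2.48, 2.96 and 3.16 TPM. Among the GLI factors that carry out the response, Gli3, mainly a repressor, lay at 27.9, 23.2, 22.1 and 33.8 TPM against 3.51, 3.65 and 3.81 TPM. Gli1, itself a target of the pathway, was higher in mESC, at 11.3, 12.8 and 17.1 TPM against 5.48, 5.02, 5.93 and 4.94 TPM in GE/OB, and Gli2 was the other member higher in mESC.

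Genes of maturing neurons lay one way. All 34 genes of the neuronal cytoskeleton and differentiation list were higher in GE/OB, 32 by at least 2-fold, with a median of 4.74, and their summed level was 1995 to 2115 TPM in mESC and 29161 to 33217 TPM in GE/OB. Tuba1a, the alpha tubulin of young neurons, was the most abundant, at 10526, 10985, 11888 and 10532 TPM in GE/OB and 453, 502 and 550.4 TPM in mESC. Map2, a dendritic microtubule protein, lay at 3.8, 6.53 and 7.4 TPM against 768, 766, 859 and 747 TPM, and the growth cone gene Gap43 at 0.97, 1.6 and 1.91 TPM against 417, 489, 554 and 402 TPM. Stmn4, a microtubule regulator, had 15324 counts against 1, a ratio of 30874 in CPM (95% interval 5540.5 to 1219540.0). Stmn2 was one of the 2 members under 2-fold, since it already stood at 259, 273 and 291 TPM in mESC, against 606, 703, 739 and 550.2 TPM in GE/OB.

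All 32 measured synapse and vesicle genes were at least 2-fold higher in GE/OB, with a median of 6.59. Snap25, a fusion protein of synaptic vesicles, lay at 0.33, 0.485 and 0.68 TPM in mESC and 87.6, 102, 114 and 90.9 TPM in GE/OB. Syt1, the calcium sensor of release, lay at 0 to 0.04 TPM against 70.5, 82.8, 96.8 and 64.5 TPM. Nrxn3, a presynaptic adhesion molecule, was listed at 0 in mESC and lay at 36.8, 39.5, 44.9 and 38.2 TPM in GE/OB, at least 7095-fold higher. KO embryo 2 held the highest GE/OB value of all 3 genes. Among 28 axon guidance genes, 24 were at least 2-fold higher in GE/OB and none in mESC, with a median of 5.89. Dcc, the netrin receptor, was listed at 0 in mESC and lay at 64.1, 56.8, 65.3 and 76.0 TPM, at least 10103-fold higher, and the slit receptor gene Robo2 lay at 87.8, 102, 106 and 90.3 TPM against 0.05, 0.12 and 0.37 TPM. The ephrin receptor gene Epha3 differed by 11.98 ± 0.10, with 18712 counts against 7. The chemokine receptor gene Cxcr4, used by migrating interneurons, lay at 29.8, 30.6, 36.8 and 30.7 TPM against 1.75, 2.38 and 4.23 TPM.

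**Figure D1:**
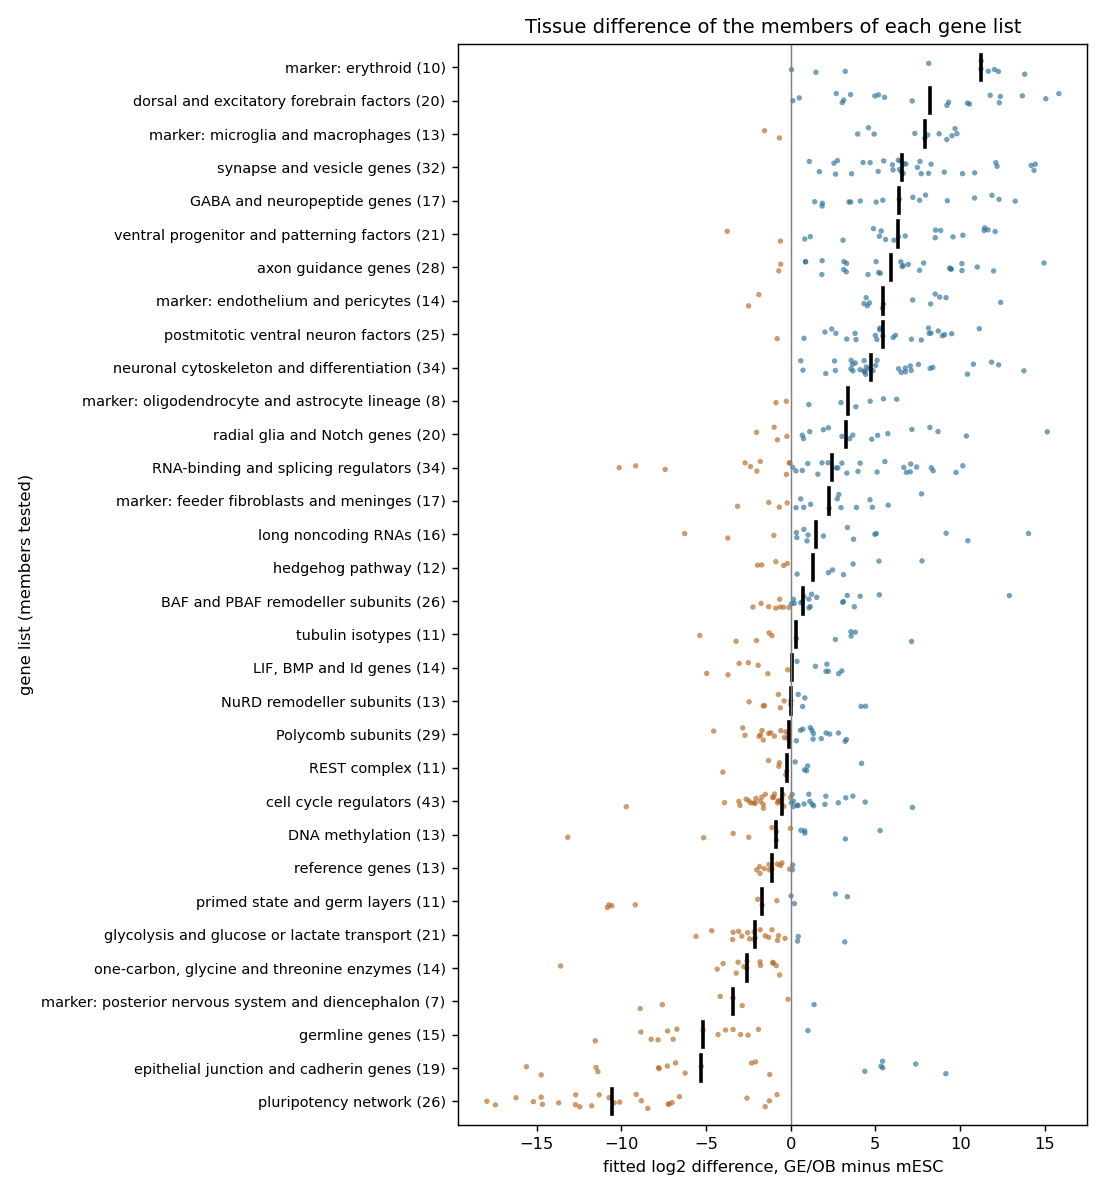
Fitted log2 difference, GE/OB minus mESC, of every tested member of the gene lists, 1 point per gene, with the median of each list as a bar. The pluripotency list lies wholly below 0 with a median of -10.57, and the GABA and synapse lists lie wholly above 0 with medians of 6.41 and 6.59.

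Chromatin remodellers of the BAF family swap subunits as neural cells stop dividing, and the list was read for those swaps. Of 26 BAF and PBAF subunit genes, 12 were at least 2-fold higher in GE/OB and 3 in mESC, with a median of 0.74. Actl6a, the actin-related subunit of progenitors, lay at 208, 215 and 225 TPM in mESC and 109, 106, 93.2 and 114 TPM in GE/OB. Actl6b, its neuronal counterpart, whose promoter is printed above, lay at 130.3, 154, 163 and 136 TPM in GE/OB, with 8319 counts against 1, a ratio of 16761 in CPM (95% interval 3007 to 662095). The ATPase gene Smarca2 and the scaffold gene Smarcc2 were higher in GE/OB by 3.34 ± 0.07 and 4.10 ± 0.04, and the neuronal subunit gene Ss18l1 by 3.76 ± 0.07. Smarcc2 lay at 8.68, 9.60 and 11.6 TPM in mESC and 256, 251, 277 and 265 TPM in GE/OB.

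Among 13 subunit genes of the NuRD complex, which joins remodelling to histone deacetylation, 3 were at least 2-fold higher in mESC and 2 in GE/OB. Hdac1, a deacetylase, differed by -2.45 ± 0.06, and Chd5, a remodelling ATPase of neurons, was higher by 4.15 ± 0.12, at 30.1, 37.2, 45.4 and 29.2 TPM against 1.2, 1.42 and 2.47 TPM. Polycomb, which represses developmental genes through histone H3 and H2A marks, had 10 of 29 subunit genes at least 2-fold higher in GE/OB and 9 in mESC. Of the core of the methylating complex, Eed lay at 167, 181 and 189 TPM in mESC against 43.8, 46.05, 41.2 and 43.6 TPM in GE/OB and Suz12 at 154, 165 and 167 TPM against 70.8, 60.8, 62.9 and 73.2 TPM. Its catalytic subunit gene Ezh2 did not pass the test, with a log2 difference of -0.07 ± 0.05 in normalized counts, at 140.5, 151 and 155 TPM against 246, 218, 215 and 259 TPM, and on the TPM scale it was called higher in GE/OB by 0.66. In the ubiquitylating complex, the reader gene Cbx7 lay at 129, 129.8 and 159 TPM in mESC and 4.81, 4.31, 6 and 6.13 TPM in GE/OB, whereas Bmi1 was higher in GE/OB by 2.30 ± 0.04 and Phc2 by 3.21 ± 0.09. The medians of both lists, -0.01 for NuRD and -0.12 for Polycomb, were 0.56 on the TPM scale.

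Rest, the repressor of neuronal genes outside neurons, lay at 93.4, 99.8 and 105 TPM in mESC and 9.67, 9.41, 9.28 and 10.4 TPM in GE/OB, a log2 difference of -4.004 ± 0.05 without overlap. Its cofactors went both ways: of 11 genes of the complex, Rest included, 6 were called higher in mESC and 5 in GE/OB. At 2-fold these were 2, Rest and Sin3a, and 1, Ctdspl. The list's median was -0.24 in normalized counts and 0.71 on the TPM scale.

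RNA-binding proteins that shape neuronal splicing had 21 of 34 members at least 2-fold higher in GE/OB and 7 in mESC, with a median of 2.45. Ptbp1, which represses neuronal exons, lay at 535, 548 and 577 TPM in mESC and 205, 175, 183 and 221 TPM in GE/OB, and its neural relative Ptbp2 at 17.9, 20.2 and 23.8 TPM and 274, 251, 251 and 257 TPM. Rbfox3, the neuronal antigen NeuN, lay at 0.18, 0.29 and 0.39 TPM against 41.6, 43.5, 45.0 and 43.9 TPM. The activator of neuronal microexons Srrm4 was higher in GE/OB by 5.56 ± 0.07, Elavl3 by 7.43 ± 0.06 and Celf3 by 10.16 ± 0.10. Esrp1, the epithelial splicing factor, went the other way, from 4.35, 5.58 and 7.26 TPM in mESC to 0.06, 0.03, 0.07 and 0.08 TPM in GE/OB.

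To follow such exchanges directly, the ratio of both members was computed per library for 28 pairs of related genes, and the second member's share of the pair's TPM is given as mean ± SD over 6 mESC and 4 GE/OB libraries. The log2 ratio differed in 25 pairs by the exact 2-sided permutation test with Benjamini-Hochberg adjustment over the 28, 23 toward the second member in GE/OB and 2 away from it. Of single genes, 91.8% differed. The pairs were chosen with earlier results of these data known, and most were ordered with the member known from neural cells second, so that neither the count nor its direction is independent evidence. The lowest adjusted p, 0.00556, is the smallest reached by any pair, because 6 against 4 libraries cannot give a raw p under 0.00476. In 17 pairs the majority passed from one member to the other. The Ptbp2 share went from 3.58% ± 0.433 to 56.9% ± 2.23 and the Actl6b share from 0.00313% ± 0.00767 to 57.9% ± 4.45. The Smarcc2 share of its pair with Smarcc1 went from 5.97% ± 0.743 to 65.8% ± 1.44. Each of these 3 pairs was held by one member in mESC and led by the other in GE/OB. For Dnmt3a against Dnmt3b the share went from 12.2% ± 2.16 to 95.3% ± 0.771, for Tet3 against Tet1 from 0.977% ± 0.147 to 73.9% ± 1.26, and for Cbx6 against Cbx7 from 13.6% ± 1.34 to 91.3% ± 1.36. The Ccnd2 share of the pair with Ccnd3 went from 0.722% ± 0.264 to 89.8% ± 0.432, one of the widest shifts, and that of Slc2a1 with Slc2a3 from 29.8% ± 1.27 to 76.6% ± 2.50. The lactate dehydrogenase pair moved less, with Ldhb going from 40.3% ± 0.885 to 52.7% ± 1.77. Smarca2, Chd5, Eno2, Aldoc, Rbfox1 and Tubb3 gained share without reaching a majority, Eno2 only from 0.138% ± 0.031 to 6.80% ± 1.66. Mycn lost share to Myc, from 92.4% ± 0.578 to 67.2% ± 4.49. The pairs Ezh1 with Ezh2, Mbnl2 with Mbnl1 and Id4 with Id1 missed the threshold, at adjusted p of 0.227, 0.0513 and 0.938 in the permutation test.

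**Figure D2:**
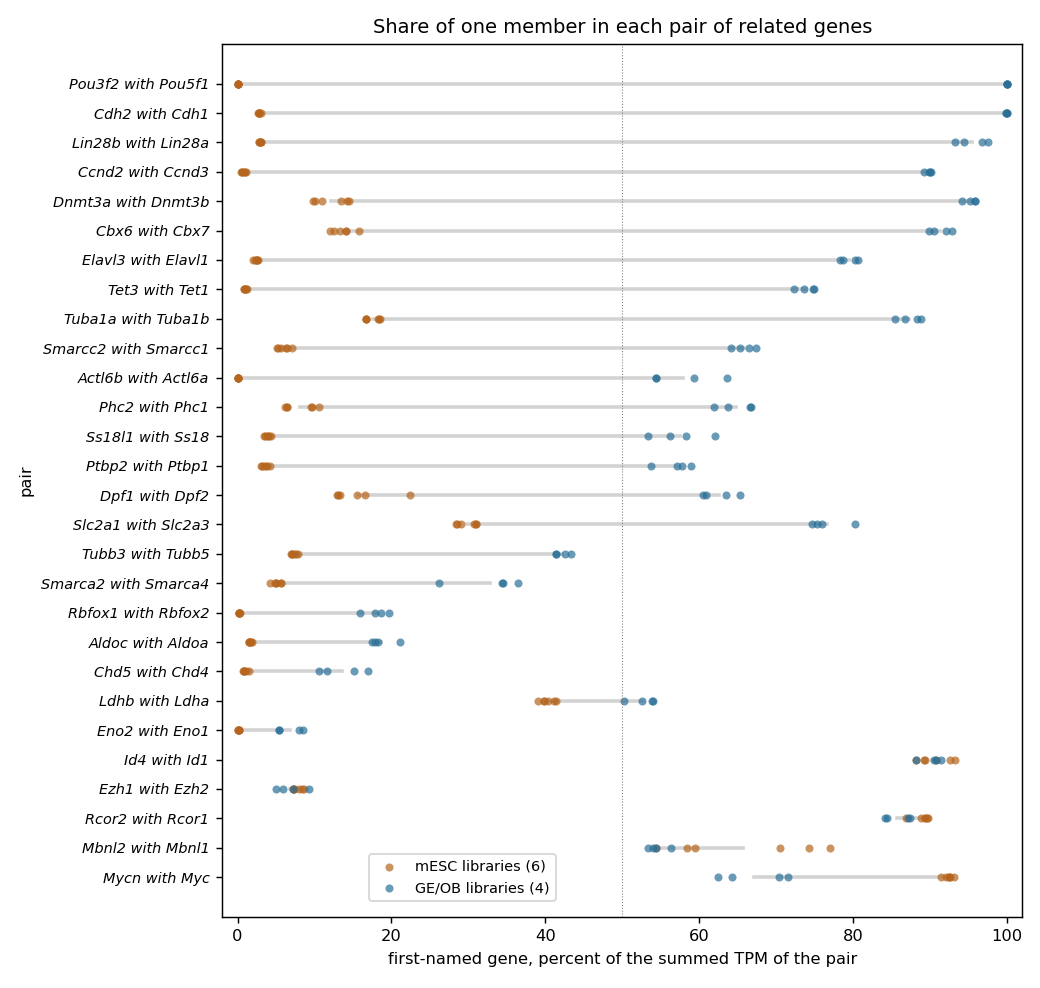
Share (percent) of the gene named first on the axis in the summed TPM of each of 28 pairs of related genes, 1 point per library for 6 mESC and 4 GE/OB libraries, with a grey line joining the group means. The Actl6b share of its pair with Actl6a moves from 0.00313% to 57.9%, and that of Ezh1 with Ezh2 is 7.81% and 6.87%.

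Tubulin isotypes changed in level and in makeup. Alpha tubulin summed to 3280 ± 136 TPM (SD, n = 6) in mESC and 12623 ± 549 TPM (SD, n = 4) in GE/OB. The Tuba1a share rose from 15.3% ± 0.847 to 87.0% ± 1.60, and that of Tuba1b, the isotype of dividing cells, went from 71.8% ± 0.611 to 12.6% ± 1.52. Beta tubulin summed to 2542 ± 24.8 TPM and 9920 ± 505 TPM. Tubb5 held 51.4% ± 0.304 of it in mESC and 26.5% ± 1.01 in GE/OB, Tubb2b 16.8% ± 0.256 and 42.1% ± 0.778, and Tubb3 4.05% ± 0.197 and 19.3% ± 0.331. The coding sequences of these genes are nearly identical, so that the division of reads among them is uncertain.

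Long noncoding RNAs were mostly higher in GE/OB, 9 of 16 measured by at least 2-fold against 2 in mESC, with a median of 1.48. Miat, a nuclear RNA of neurons, lay at 0.08, 0.11 and 0.24 TPM in mESC and 358, 294, 348 and 367 TPM in GE/OB. Dlx6os1, transcribed across the Dlx5 and Dlx6 locus, had 27656 counts in GE/OB and 2 in mESC, a ratio of 27860.1 in CPM (95% interval 7712 to 230061), and its overlap with Dlx6 leaves the division of reads uncertain. The imprinted RNA Meg3 was high in both, at 41.2, 96.4 and 127 TPM and 705, 851, 973 and 717 TPM. The imprinted RNA H19 differed by 4.97 ± 0.09. Neat1, the scaffold of paraspeckles, went the other way, from 47.3, 55.5 and 132 TPM in mESC to 1.43, 1.65, 1.2 and 1.27 TPM in GE/OB, and the mESC wells spread widely. By annotated class, the median log2 difference was 1.11 over 453 antisense genes and 0.83 over 447 lincRNA genes, against -0.01 over 14419 protein-coding genes. On the TPM scale these medians were 0.97, 0.76 and 0.54. The classes were not matched for level, and genes of lower level lay further toward GE/OB. Below and above the median of mean level, genes spanning under 10 kb had medians of 0.44 and -0.72. For spans of 10 to 30 kb these were 0.31 and -0.39. Whether the classes differ at equal level was not tested. The antisense genes share sequence with their partners, and the RSEM settings given in the study's methods name no strand option, so that reads of a gene and of its antisense partner could not be told apart.

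Markers of other cells of the embryo were counted in GE/OB beside the neural genes. The erythroid list, with globins at its head, summed to 3216 to 3844 TPM in GE/OB and 0.89 to 2.31 TPM in mESC, and 9 of 10 measured members were at least 2-fold higher in GE/OB. Hba-a2, an alpha globin gene nearly identical to Hba-a1, lay at 1295, 1313, 1317 and 1462 TPM. The microglia and macrophage list summed to 50.6 to 65.2 TPM against 1.81 to 2.24 TPM, with 11 of 13 members at least 2-fold higher in GE/OB, and Csf1r, the receptor that microglia need, at 5.44, 5.82, 6.67 and 4.96 TPM. The endothelial and pericyte list summed to 132 to 158 TPM against 54.6 to 62.7 TPM, with 12 of 14 higher in GE/OB and 2 in mESC. Pecam1, an endothelial adhesion molecule, was one of the latter, at 44.4, 49.1 and 50 TPM in mESC against 12.6, 13.8, 14.3 and 11.7 TPM, and Rgs5, a pericyte gene, lay at 30.4, 36.3, 35.4 and 25.8 TPM against 1 count in mESC. Fibroblast genes, which would mark feeder cells in the cultures and meninges in the dissections, summed to 5.02 to 8.60 TPM in mESC and 45.98 to 53.62 TPM in GE/OB, with Twist2 at 0 in every library. Of 17 measured, 10 were at least 2-fold higher in GE/OB and 2 in mESC, with a median of 2.27. Genes of the oligodendrocyte and astrocyte lineages summed to 38.5 to 42.2 TPM in mESC and 58.2 to 84.0 TPM in GE/OB, where 6 of 8 measured members were at least 2-fold higher. The part of these cells in the differences above was not tested.

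The deposited table also gives for each gene the mean length of its transcripts, weighted by their estimated abundance, so that a shift within a gene shows that a different mix of isoforms was assigned. Over all genes the TPM-weighted transcript length was 1688 ± 11.1 bases (SD, n = 6) in mESC and 2124 ± 35.4 bases (SD, n = 4) in GE/OB, with p = 0.00476 in the exact permutation test, the smallest possible. That mean also moves with which genes are abundant, and does not by itself show a change of isoforms. Within the 5660 genes tested for length, the median log2 ratio was -0.001. Among 5660 autosomal genes with several transcripts and at least 5 TPM in all 10 libraries, the weighted length differed by at least 25% at an adjusted p under 0.05 in limma for 360 genes (6.36%), of which 263 (4.65%) were longer in GE/OB and 97 (1.71%) longer in mESC. Without the minimum ratio the split was even, 1266 against 1318 of 2584. Gpr98, a very large adhesion receptor gene, changed most, from 2387 to 2600 bases in mESC to 12938 to 14677 bases in GE/OB, a ratio of 5.65. Next came Lyrm9 (3.26), Tulp4 (3.17), Syngr1 (3.16), Tcte2 (3.14), Zfp738 (2.72), Emc8 (2.70) and Camta1 (2.67), where the number is the length ratio. The ranges of both sources were apart for each of these genes, and Syngr1, a synaptic vesicle gene, had a gene-level log2 difference of -0.37. Longer in mESC were Traf3ip2 (1.90), Dhtkd1 (1.79), Ap1g2 (1.69), Tln1 (1.68), Gm14325 (1.58), Lpcat3 (1.52), Asph (1.47) and Tmem63b (1.47). Talin, the product of Tln1, links integrins to actin, and its weighted length was 7093 to 7748 bases in mESC and 4340 to 4746 bases in GE/OB. Among list members chosen after their values were seen, Ank2, a neuronal membrane scaffold gene, went from 4068 to 5089 bases to 8477 to 9525 bases, Dnmt3a from 3509 to 4187 to 5644 to 6350 bases, and Tet1 from 11965 to 12293 down to 8571 to 8814 bases. Of the 263 genes longer in GE/OB, 85 were also at least 2-fold higher there as genes, 36 were at least 2-fold lower and 142 were neither. Over all genes tested for level, 34.0% were at least 2-fold higher in GE/OB and 28.0% in mESC. The counts were not set against the 5660 genes tested for length. They therefore do not show whether length and level changed together.

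**Figure D3:**
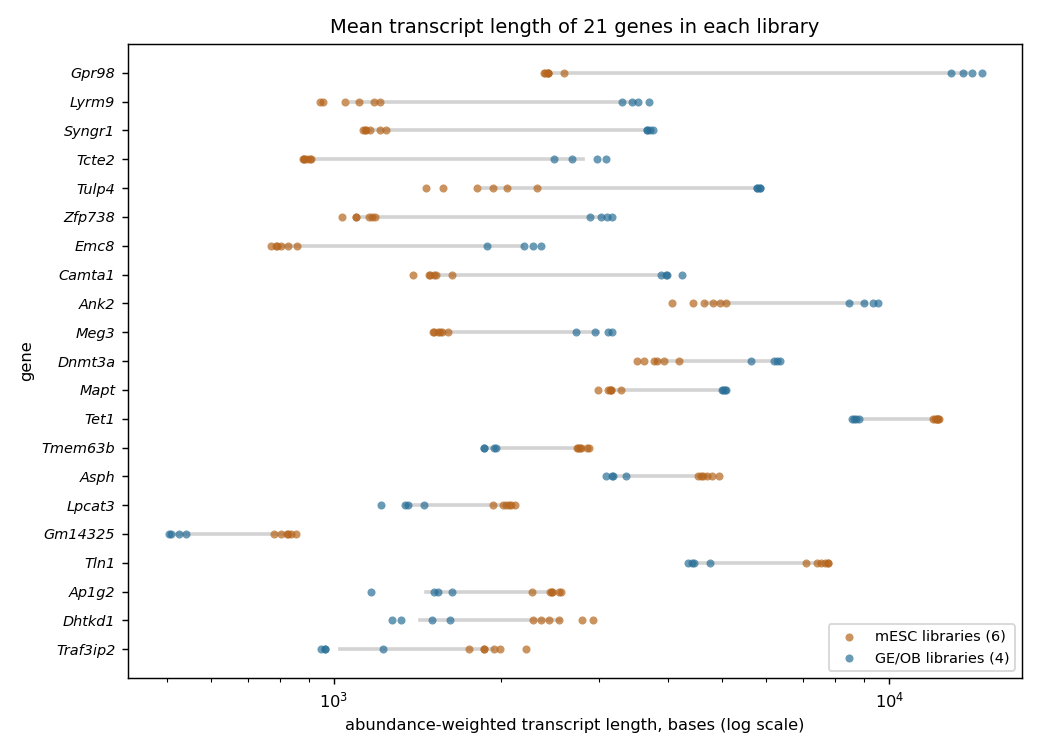
Abundance-weighted transcript length (bases, log axis) of genes whose length differed most between the sources, 1 point per library for 6 mESC and 4 GE/OB libraries. Gpr98 lies at 2387 to 2600 bases in mESC and at 12938 to 14677 bases in GE/OB, and Tln1 at 7093 to 7748 and 4340 to 4746 bases.

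Long genes lay toward GE/OB. By genomic span of the annotated gene, the median log2 difference was -0.15 over 4309 genes under 10 kb, -0.17 over 4966 genes of 10 to 30 kb and 0.03 over 4294 genes of 30 to 100 kb. It was 1.05 over 1693 genes of 100 to 300 kb and 4.33 over 515 genes over 300 kb, a range that includes Nrxn3, Dcc, Robo2 and other adhesion and synapse genes. Of those 515, 402 (78.1%) were at least 2-fold higher in GE/OB and 37 (7.18%) in mESC, against 34.0% and 28.0% of all tested genes. Above and below the median of mean level, spans over 300 kb had medians of 2.85 and 5.04, and on the TPM scale the median was 2.75. Long genes on the other side, named after their values were seen, included Utrn, at 25.9 to 27.6 TPM in mESC and 5.37 to 6.84 TPM in GE/OB, and Dlc1, at 42.7 to 45.9 TPM and 10.4 to 12.2 TPM. By chromosome the medians ran only from -0.21 (chromosome 17) to 0.37 (chromosome 18).

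Promoter composition, illustrated by the windows printed above, went with the size of the difference in both directions. In the windows at the GENCODE gene starts, the median number of CG was 17 over all tested genes, with quartiles of 8 and 26, and 20 over the 5984 genes within 2-fold that had a window. It was 11 over the 1506 genes at least 32-fold higher in GE/OB and 7 over the 792 at least 32-fold higher in mESC. Windows with fewer than 5 CG made up 9.44% of genes within 2-fold, 20.6% of the former and 33.7% of the latter. In the printed windows, Pou5f1 with 11 CG, Fabp7 with 6 and Neurod6 with 3 lay below the median of all tested genes, and Actl6b with 23 lay above it, so that the tendency did not hold gene by gene. Over protein-coding genes alone the medians were 20 within 2-fold, 11 toward GE/OB and 7 toward mESC.

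**Figure D4:**
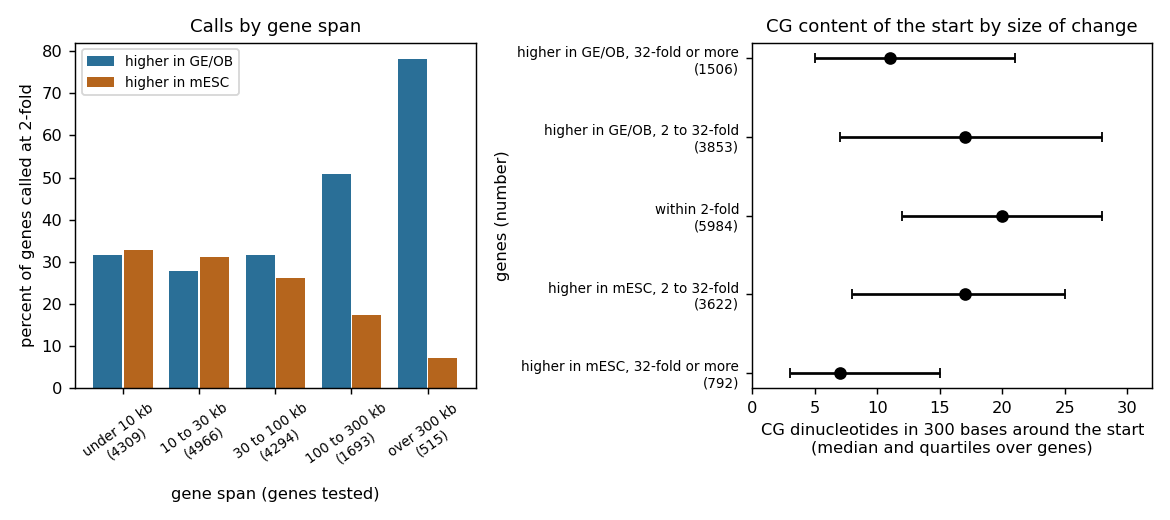
Left, percent of tested autosomal genes called at least 2-fold higher in GE/OB or in mESC, as bars by genomic span in kb; right, number of CG dinucleotides in 300 bases around the start by size and direction of the difference, as median (point) and quartiles (bars). Of genes over 300 kb, 78.1% are called toward GE/OB and 7.18% toward mESC, and starts of genes at least 32-fold higher in mESC have a median of 7 CG.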

How the data were processed

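RNA was poly(A)-selected and sequenced on an Illumina HiSeq, and the authors aligned reads to mm10 with bowtie2 and quantified genes with RSEM. The deposited table of each library holds expected counts (estimated counts that need not be whole), TPM and a transcript length per gene, the mean over its transcripts weighted by their abundance. All columns of per-sample values were mapped, so that 0 were left unused. Groups came from the labels: 6 mESC and 4 GE/OB libraries, the other RNA sequencing libraries being used only in an alternative. The gene lists and pairs, and the comparison itself, were chosen with earlier results of these data known.

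Expected counts were rounded, and the 16584 genes of any chromosome that passed edgeR's expression filter were fitted with edgeR 4.0.16 (R 4.3.3, TMM, quasi-likelihood test). Tissue and genotype were the terms, and p-values were adjusted over all 16584 genes by Benjamini-Hochberg. Calls were then reported for the 15777 autosomal genes among them. Weighted transcript lengths of genes at 5 TPM or more in all 10 libraries were tested on the log2 scale with limma 3.58.1, a call also requiring a difference of at least 25%. Values per library (pair ratios on log2(TPM + 0.1), numbers of genes detected) were compared by the exact 2-sided permutation test in Python 3.11.15. Genes named in the text were the 8 called with the largest difference in each direction whose higher source averages at least 10 TPM, marked members of each list, up to 2 members against the direction of a list's median, both members of each pair and the 8 with the largest length ratio in each direction. A few genes that this rule names are not reported here. Where a source had no count, the fold is a bound with 3 counts set for the whole group, and with 1 to 3 counts the ratio has an exact 95% interval. Intervals and bounds cover counting error only, and reads are not independent molecules. The printed promoter windows came from RefSeq (GRCm38.p6) by gene symbol. The windows counted over all genes were read from the GRCm38.p6 genome at the outermost 5′ end of each gene in the GENCODE annotation, for 15772 of 15777 tested genes, so that the printed windows of Fabp7, Actl6b and Pou5f1 lie 42, 29 and 14 bases from the counted ones. Replicate numbers did not pair the samples. The fit of counts was run on simulated counts of 16584 genes with 200 changed. It recovered 71.6%, 83.6% and 97.0% of changes of 1.5, 2 and 4-fold, and 6.67% of its calls were false. Far fewer genes changed there than were called here, so that the simulation cannot show how the fit performs on these data. Alternatives were another normalization, DESeq2 1.42.0, other filters, length offsets, thinned counts, single genotypes, a replicate block and leaving out each library, plus limma on log2(TPM + 0.5), which was chosen after seeing the data. Figures were drawn with matplotlib 3.10.9.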

Additional observations from a re-analysis of the deposited data

Results flagged for a closer look

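Among 249 sets of library values examined for a library far from the others, 12 held one, near the share of about 1 in 20 that chance alone gives. The 12 are listed as values only. In the mESC, KO well 1 was low for Fgf4 (157.76 TPM) and AU018091 (59.17 TPM), WT well 1 was high for Rb1 (6.18 TPM), KO well 2 was high for Gad1 (3.42 TPM) and KO well 3 was high for Cbx7 (158.63 TPM). In GE/OB, KO embryo 7 was high for Eno1 (513.99 TPM), Pax6 (105.63 TPM) and Hba-a2 (1461.57 TPM) and low for Gpm6a (438.87 TPM) and Smarca2 (100.23 TPM). KO embryo 2 was low for Neurod2 (107.21 TPM) and high for Cxcr4 (36.81 TPM).

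The difference between GE/OB and mESC itself differed between KO and WT libraries for 10 of the 154 genes given with values, by the interaction term of the edgeR quasi-likelihood test with adjustment over all genes. The KO minus WT value on the log2 scale was 8.64 for Olig1 (adjusted p = 2.31e-09) and 10.50 for Olig2 (adjusted p = 2.25e-09). It was 1.27 for Meg3 (adjusted p = 0.0248), 1.05 for Dnmt3a (adjusted p = 2.6e-06), 1.02 for Otx2 (adjusted p = 0.000165) and 0.88 for Gldc (adjusted p = 0.000455). The value was -1.82 for Meis2 (adjusted p = 1.45e-07), -0.63 for Klf4 (adjusted p = 0.0345), -0.56 for Map2 (adjusted p = 0.0314) and -0.50 for Phc2 (adjusted p = 0.0337). Over all autosomal genes the interaction passed for 280 of 15777 tested. In mESC each genotype was 1 clone and in GE/OB genotype went with sex, so that genotype, clone and sex cannot be told apart here.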

How the results depend on the processing

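Genes called between the sources numbered 12902 (at least 1 CPM in 4 libraries) to 15729 (no filter) in place of 14487, and 14322 to 14701 when 1 library was left out (7349 to 7578 toward GE/OB and 6861 to 7123 toward mESC). At 2-fold the range was 9716 to 10098 (5315 to 5547 and 4311 to 4551). On log2(TPM + 0.5), a scale chosen after seeing the data, 2558 genes were called at 2-fold toward mESC in place of 4415. Replicate numbers were shared across sources only as numbers (correlations of same-numbered libraries from -0.0111 to 0.0497), and with the replicate block 14430 genes were called, 9835 at 2-fold, and 376 for length.

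Transcript length calls, 360 in all, were 179 at 20 TPM or more (133 longer in GE/OB, 46 in mESC), 102 at a ratio of 1.5 (96 and 6) and 2584 with no minimum ratio (1266 and 1318), so that the excess toward GE/OB rests on the minimum ratio. Without 1 library they were 351 to 375 (260 to 274 and 90 to 104). Of 28 pairs, 25 to 26 passed without 1 library and 27 with a pseudocount of 1 TPM or with CPM. The ratio of Id4 to Id1, not past the test, turned sign to 0.36 (pseudocount 1 TPM), 0.012 (CPM), and 0.047, 0.070 and 0.087 without mESC WT wells 1 and 3 and WT embryo 3 (range without 1 library -0.093 to 0.087).

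Of 3542 values of the 154 genes under the alternatives, 3515 kept direction and call, and 11, all of Olig1, Olig2 or Ezh2, turned direction. Olig1 became 1.24 with 1 coefficient per tissue and genotype, 1.23 with all 16 libraries, 2.85 in DESeq2, 5.54 in KO libraries alone, 0.72 on the TPM scale, and 0.51 and 0.46 without WT embryos 1 and 3 (range without 1 library -1.87 to 0.51). Olig2 became -1.78 in WT libraries alone and -0.68 with no genotype term. Ezh2 became 0.022 with length offsets and 0.66 on the TPM scale. Another 3, all of Tbp, lost the call, and 13 gained one. These were Olig1 in WT libraries alone (-3.15) and without KO embryo 2 (-1.87), Olig2 with 1 coefficient per tissue and genotype (3.54), with all 16 libraries (3.54), in DESeq2 (6.34) and in KO libraries alone (8.80), Ezh2 with the replicate block (-0.11) and without KO embryo 7 (-0.11), and Ccnd1 at 1 CPM in 4 libraries (0.18), with thinned counts (0.20), on the TPM scale (0.81) and without WT embryo 3 (0.20) or KO embryo 2 (0.23). The cause was not tested. Genes with few counts in one source had fitted differences limited by depth, and are given as bounds or count ratios.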
